A study of Mus musculus with 15 samples.

Results

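The enzymes of the liver's methionine cycle and the steps attached to it were followed over the circadian day in ribosome-protected mRNA fragments. The set comprised 9 mouse genes, Mat1a, Gnmt, Ahcy, Bhmt, Bhmt2, Cbs, Cth, Shmt1 and Pemt, taken by gene symbol, with earlier results of these data known. They had 15 of the 28167 RefSeq transcripts in the count tables (9 of 20097 named genes), and each gene is represented here by its transcript with the highest mean count. The libraries came from livers of wild-type male C57BL/6N mice aged 8 to 10 weeks. The animals were kept for 2 weeks under 12 h of light and 12 h of darkness, spent 24 h in constant darkness and were then killed at CT0, CT4, CT8, CT12, CT16, CT20 or CT24, where CT is circadian time in hours. There were 2 mice at each of the 7 times, and no other genotype or treatment. Each value is therefore given for both mice in the order replicate 1, replicate 2, and an SD at a time rests on 2 values.

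Methionine is activated to S-adenosylmethionine, the methyl donor of the cell, and each methyl transfer leaves S-adenosylhomocysteine, which is cleaved to homocysteine and adenosine. Homocysteine is either methylated back to methionine, with betaine or a folate as the donor, or passed through cystathionine to cysteine. The liver is the main site of these reactions, and hepatocytes hold the cycle's own isoforms of several enzymes.

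The total count per library ran from 40593197 to 90458783, and transcripts with a symbol beginning with Mup, the major urinary proteins secreted by hepatocytes, took 34.2% to 57.6% of it. Counts were therefore put on the TMM scale, which adjusts each library by a factor taken from most transcripts, and are given as CPM, the counts per 1000000 counts so scaled. The factors differed by up to 0.99 on the log2 scale between libraries. The clock genes followed the time labels, with fitted peaks at CT23.0 for Arntl, CT11.2 for Dbp and CT16.5 for Per2. CT16 replicate 2 stood apart in that 100% of its nonzero counts were even numbers, against 48.9% to 50.4% elsewhere. CT20 replicate 2 stood apart in pancreatic transcripts. Its 6 acinar cell markers summed to 2749 CPM, against 2.47 to 54.5 CPM in the other 13 libraries. All 6 hepatocyte markers were detected and summed to between 34136 and 47368 CPM, while 3 of 5 kidney markers, Slc12a1, Kap and Aqp2, had no read. In whole liver, fewer cells of a type and fewer ribosomes per cell cannot be told apart, and without RNA libraries neither can mRNA amount and ribosomes per mRNA.

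A rhythm was tested with edgeR's quasi-likelihood F test of a 24-h cosine and sine, with Benjamini-Hochberg adjustment over 17299 transcripts. Of the 9 enzymes, 7 passed an adjusted p of 0.05, whereas 11.3% of all tested transcripts did. All 7 had their fitted peak in the subjective late night and morning, from CT18.3 for Ahcy to CT3.83 for Cbs. Ahcy lay within its SE of CT18, the edge of this window, and moved to CT17.9 without both CT24 libraries. A call with a peak between CT18 and CT6 was made for 5.18% of all transcripts tested and for 46.0% of the transcripts called. The median peak-to-trough difference of the 9 genes was 0.68 on the log2 scale, beside 0.44 over all transcripts tested. The order of the peaks was Ahcy, Shmt1, Gnmt, Bhmt2, Cth, Bhmt and Cbs, with standard errors of 0.526 to 0.906 h. JTK_CYCLE, a rank test of rhythms, called 8 of the 9 enzymes on the scale of total counts, where it called 17.6% of all transcripts. On the TMM scale it called 8, and 16.7% of all transcripts. Its P was adjusted only over the lags (times of peak) tried for each transcript. Unlike the adjusted p of edgeR, it was not adjusted over transcripts. Without CT20 replicate 2, 6 of the 9 passed and 10.7% of all transcripts did, Shmt1 being the enzyme lost.

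**Figure D1:**
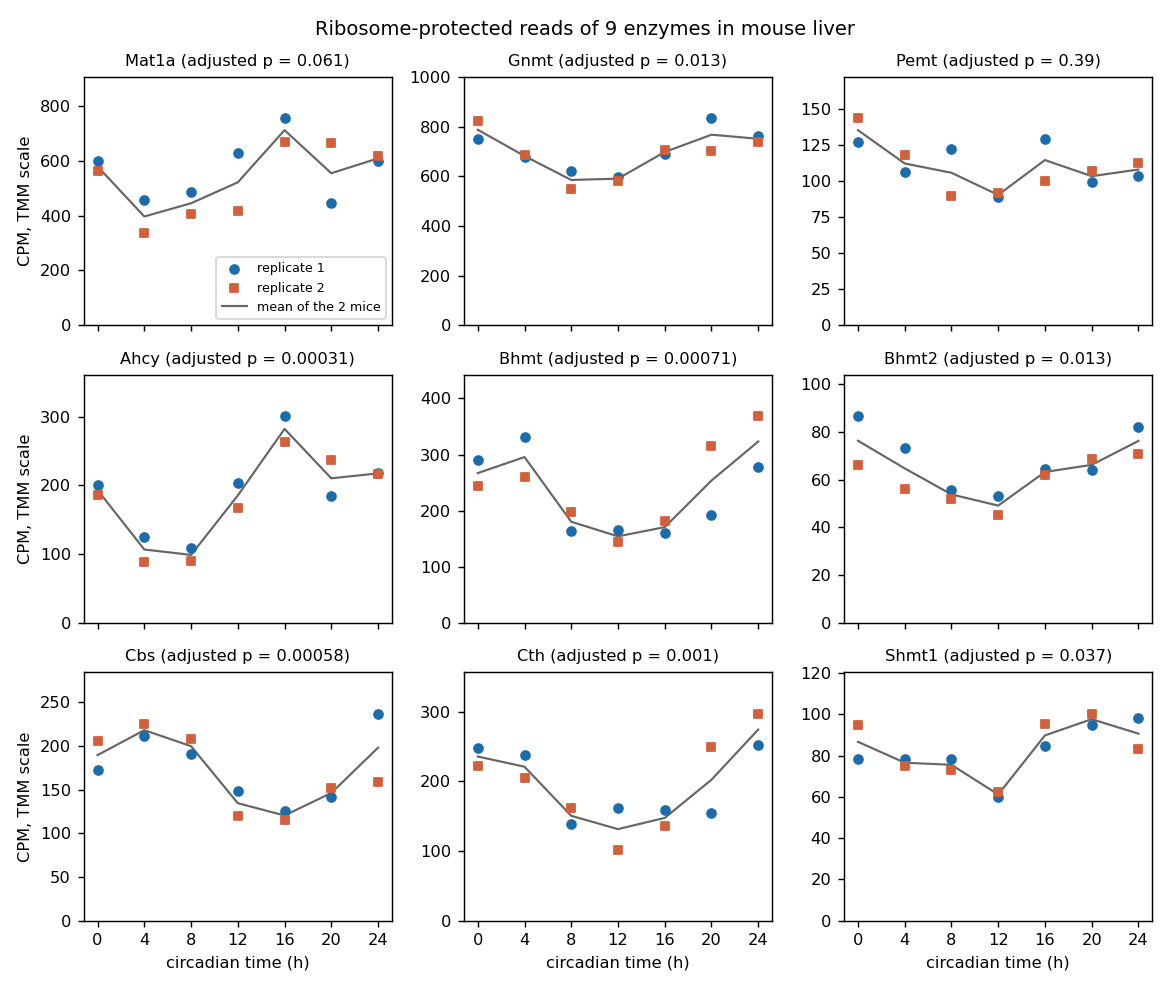
Ribosome-protected reads of each enzyme (CPM on the TMM scale, linear axis from 0) against circadian time in h, with circles for replicate 1, squares for replicate 2 and a line through the mean of the 2 mice. Ahcy is lowest at CT4 and CT8 and highest at CT16, whereas Bhmt, Cth and Cbs are low between CT12 and CT16.

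Mat1a makes S-adenosylmethionine in the adult liver. The gene lies at chr14:41105033-41124428 on the plus strand of GRCm38 and has 10 exons. Its reads were 599 and 562 CPM at CT0, 457 and 337 at CT4, 486 and 405 at CT8, 628 and 416 at CT12, 756 and 669 at CT16, 446 and 665 at CT20, and 601 and 618 at CT24. The 2 mice at CT16 were above all other libraries, and the 2 mice differed most from each other at CT12 and at CT20. The CT16 mean of 713 ± 61.2 CPM (SD, n = 2) was 1.79-fold the CT4 mean of 397 ± 84.5 (SD, n = 2), and these 2 pairs did not overlap. The rhythm did not pass (edgeR, peak at CT18.3, peak-to-trough 0.68 log2, adjusted p = 0.0605), and it passed without CT20 replicate 1 (edgeR, adjusted p = 0.00657). On the scale of total counts the difference was 1.05 log2 (edgeR, adjusted p = 0.0860). The rhythm also passed with CDS reads alone (edgeR, adjusted p = 0.0499) and in the likelihood ratio test of DESeq2 (adjusted p = 0.0158).

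Gnmt spends S-adenosylmethionine on glycine and so disposes of excess methyl groups. It lies at chr17:46725664-46729165 on the minus strand and has 6 exons. It gave 752 and 824 CPM at CT0, 678 and 687 at CT4, 623 and 548 at CT8, 599 and 583 at CT12, 692 and 705 at CT16, 834 and 702 at CT20, and 763 and 740.4 at CT24. All 4 libraries of CT8 and CT12 lay below the other 10. The mean fell from 788 ± 51.1 CPM at CT0 to 586 ± 52.8 at CT8 (SD, n = 2), a 1.35-fold range. On the scale of total counts the highest mean, at CT0, was 2.21 times the lowest, at CT12. The cosine peaked at CT21.8 ± 0.534 h (SE) with a peak-to-trough difference of 0.45 log2 (edgeR, adjusted p = 0.0130), or 0.92 log2 on the scale of total counts. Without CT8 replicate 2 the adjusted p was 0.0513 in edgeR, and without both CT0 libraries it was 0.0524.

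Pemt methylates phosphatidylethanolamine to phosphatidylcholine and is another large user of S-adenosylmethionine in hepatocytes. Its main transcript, NM_008819, spans chr11:59970614-60037005 on the minus strand. It gave 127 and 143 CPM at CT0, 106 and 118 at CT4, 122 and 89.4 at CT8, 88.9 and 91.5 at CT12, 129 and 99.9 at CT16, 99.4 and 107 at CT20, and 104 and 112 at CT24. The pair at CT12 was low and the pair at CT0 high, with no overlap between them, and most other libraries lay in between. The means at CT0 and CT12 were 135 ± 11.6 and 90.2 ± 1.85 CPM (SD, n = 2). The fitted peak-to-trough difference was 0.28 log2 and did not pass (edgeR, adjusted p = 0.388), nor did the 0.75 log2 on the scale of total counts (edgeR, adjusted p = 0.159). The 5 Pemt transcripts share most of their coding exons, and 2 of them, NM_001290011 and NM_001290012, had the same total count in every library. Across the 5, the edgeR adjusted p was between 0.359 and 0.509.

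Ahcy hydrolyses S-adenosylhomocysteine, the product that inhibits methyltransferases. It lies at chr2:155059310-155074497 on the minus strand and has 10 exons. It gave 201 and 186 CPM at CT0, 124 and 89.2 at CT4, 108 and 89.3 at CT8, 204 and 167 at CT12, 301 and 263 at CT16, 184 and 237 at CT20, and 218 and 217 at CT24. The 4 libraries of CT4 and CT8 lay below all others and the 2 of CT16 above all others. Its mean was 282 ± 26.6 CPM at CT16 and 98.9 ± 13.5 at CT8 (SD, n = 2), a 2.85-fold range that was the widest of the 9 enzymes. The fitted peak was at CT18.3 ± 0.542 h (SE) with a peak-to-trough difference of 1.47 log2 (edgeR, adjusted p = 0.000305), larger than that of 94.7% of the transcripts tested. Of the 1272 stretches of 28 nt in its coding sequence, 94.3% occurred at more than 1 place in the genome and up to 5. The study's methods restrict their transcript profiles to reads that align to only 1 place, and do not say whether the deposited counts were restricted too. If they were, reads of these stretches are missing from the Ahcy level, which is therefore uncertain.

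Bhmt passes the methyl group of betaine to homocysteine and is one of the most abundant liver enzymes. Bhmt2 is its paralogue, which uses S-methylmethionine as the donor. They lie side by side on the minus strand at chr13:93616891-93637758 and chr13:93656097-93674302, with 8 exons each, and the translated coding sequences had 74.7% identical residues over 363 aligned. Bhmt gave 291 and 243 CPM at CT0, 331 and 260.1 at CT4, 163 and 197 at CT8, 165 and 144 at CT12, 160.4 and 181 at CT16, 193 and 315 at CT20, and 278 and 369 at CT24. The 6 libraries of CT8, CT12 and CT16 lay below all of CT0, CT4 and CT24. CT20 was split, with replicate 1 among the low libraries and replicate 2 among the high ones. The mean rose from 154 ± 15.2 CPM at CT12 to 323 ± 64.4 at CT24 (SD, n = 2). The fitted peak was at CT0.657 ± 0.735 h (SE), with a peak-to-trough difference of 1.03 log2 (edgeR, adjusted p = 0.000715). Of the 28-nt stretches of the Bhmt coding sequence that lie within an exon or an uninterrupted copy, 93.1% occurred at up to 4 places in the genome, some of them in Bhmt2, and the Bhmt level carries the same uncertainty as that of Ahcy. The share was 5.79% for Bhmt2 and 0.0% for each of the other 6 enzymes.

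Bhmt2 gave 86.6 and 65.9 CPM at CT0, 73.1 and 56.2 at CT4, 55.5 and 52.0 at CT8, 53.2 and 45.0 at CT12, 64.6 and 61.7 at CT16, 63.8 and 68.5 at CT20, and 81.8 and 70.5 at CT24. Its lowest libraries were those of CT8 and CT12, and replicate 1 of CT0 and of CT24 were its highest. The mean at CT0 was 76.3 ± 14.6 CPM and that at CT12 49.1 ± 5.74 (SD, n = 2). The cosine peaked at CT22.9 ± 0.847 h (SE), with a peak-to-trough difference of 0.57 log2 (edgeR, adjusted p = 0.0130), or 1.06 log2 on the scale of total counts. The adjusted p rose to 0.0652 in edgeR without CT12 replicate 2.

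Cbs joins homocysteine and serine to cystathionine, the entry to cysteine synthesis. It lies at chr17:31612623-31637205 on the minus strand, and its 3 transcripts gave adjusted p between 0.000569 and 0.000583 in edgeR. The main transcript, NM_144855, gave 173 and 206 CPM at CT0, 211 and 225 at CT4, 191 and 208 at CT8, 149 and 120.2 at CT12, 125 and 115 at CT16, 141 and 151 at CT20, and 237 and 159 at CT24. Every library of CT0, CT4 and CT8 was above every library of CT12, CT16 and CT20, and the 2 mice differed most at CT24. The mean was 218 ± 10.2 CPM at CT4 and 120.3 ± 7.28 at CT16 (SD, n = 2). The fitted peak was at CT3.83 ± 0.526 h (SE), the latest of the enzymes called, with a peak-to-trough difference of 0.90 log2 (edgeR, adjusted p = 0.000582). Fitted separately, the 7 libraries of replicate 1 and the 7 of replicate 2 gave peaks 0.0504 h apart, the closest of the 9. The gap was 0.484 h for Pemt, 0.577 h for Ahcy, 0.587 h for Gnmt, 1.31 h for Cth, 1.53 h for Shmt1, 2.08 h for Bhmt, 2.095 h for Bhmt2 and 3.13 h for Mat1a. The order of the peaks was not tested. On the scale of total counts the Cbs peak was at CT2.03.

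Cth cleaves cystathionine to cysteine. It lies at chr3:157894248-157925063 on the minus strand and has 12 exons. It gave 248 and 223 CPM at CT0, 238 and 204 at CT4, 139 and 162 at CT8, 162 and 101 at CT12, 159 and 136 at CT16, 155 and 249.9 at CT20, and 251 and 297 at CT24. The libraries of CT0, CT4 and CT24 were all above those of CT8, CT12 and CT16, and CT20 was split as it was for Bhmt. The mean was 274 ± 32.2 CPM at CT24 and 131 ± 43.3 at CT12 (SD, n = 2), a 2.09-fold range. The cosine peaked at CT0.350 ± 0.757 h (SE), with a peak-to-trough difference of 0.99 log2 (edgeR, adjusted p = 0.00103).

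Shmt1, the cytosolic enzyme that moves a carbon unit between serine and folate, lies at chr11:60788897-60811265 on the minus strand and has 12 exons. It gave 78.4 and 95.0 CPM at CT0, 78.4 and 74.8 at CT4, 78.2 and 72.8 at CT8, 60.1 and 62.2 at CT12, 84.5 and 95.1 at CT16, 95.0 and 100.3 at CT20, and 98.3 and 83.0 at CT24. The pair at CT12 was below all others. The mean was 97.7 ± 3.77 CPM at CT20 and 61.1 ± 1.52 at CT12 (SD, n = 2). The fitted peak was at CT21.1 ± 0.906 h (SE), with a peak-to-trough difference of 0.50 log2 (edgeR, adjusted p = 0.0368), or 0.96 log2 on the scale of total counts. This was the least steady of the 7 calls. Leaving out 1 library gave edgeR adjusted p from 0.0265 to 0.103, and the call was lost without CT0 replicate 2, CT8 replicate 2, CT24 replicate 1 or any library of CT4, CT12 or CT20.

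**Figure D2:**
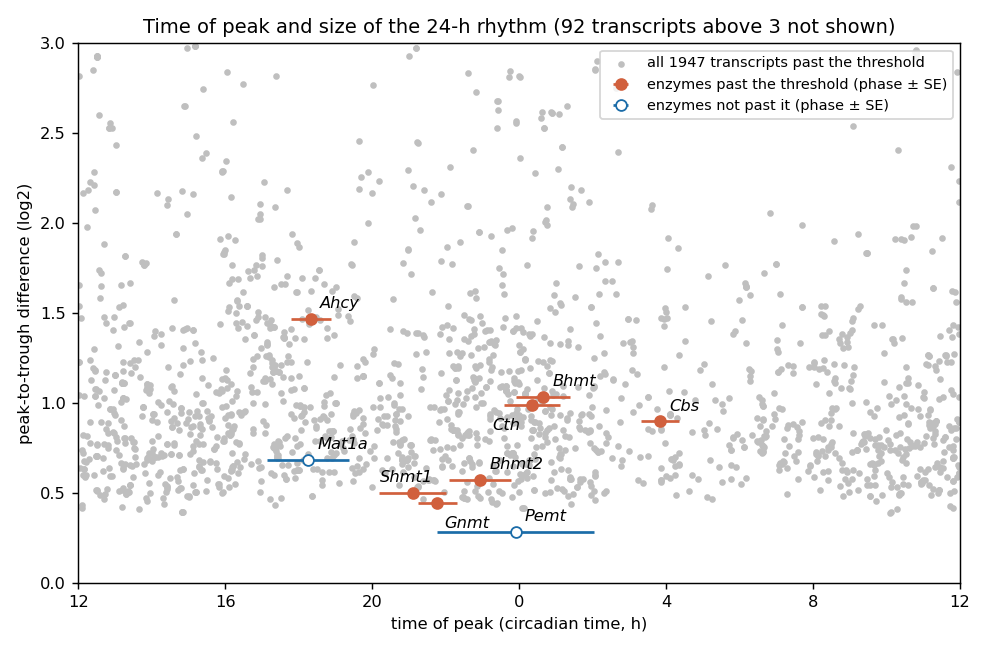
Fitted time of peak (circadian time in h, with CT0 at the centre) against the peak-to-trough difference (log2) for the transcripts past the threshold in grey (92 of the 1947, above 3 log2, are off the axis) and the 9 enzymes in colour, with bars for the SE of the phase. The 7 enzymes past the threshold lie between CT18.3 and CT3.83, and Ahcy has the largest difference.

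Levels of Ahcy, Bhmt, Cth and Cbs differed among the 7 times when time was taken as a factor with no assumed shape (edgeR, adjusted p = 0.000341, 0.0137, 0.0301 and 0.0257), 4 of 9 enzymes beside 7.08% of all transcripts. Only 2 of these enzymes, Ahcy and Bhmt, passed without CT4 replicate 1, without CT4 replicate 2 or without CT16 replicate 2. On the scale of total counts all 9 passed, with edgeR adjusted p from 0.000400 to 0.0397, beside 12.7% of all transcripts, and there the highest mean was 2.18 to 3.89 times the lowest. The cosine fit on that scale called 7 of the 9, all but Mat1a and Pemt, beside 8.25% of all transcripts. A day apart, at CT0 and CT24, none of the 9 enzymes differed in edgeR, and the share called was 0% over all transcripts. Without adjustment 0 of the 9 were under 0.05 as well, beside 5.05% of all transcripts, and DESeq2 called 0 of the 9. The widest difference was that of Pemt, whose level was lower at CT24 by -0.33 log2 (edgeR, adjusted p = 0.957).

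The peak at CT18.3 of Ahcy and that at CT3.83 of Cbs set the outer limits, and their log2 levels were opposed over the 14 libraries (Pearson r = -0.62). Bhmt and Cth, of the alternative routes from homocysteine, moved most alike (r = 0.94), followed by Mat1a and Ahcy (r = 0.89). These correlations describe libraries that share their depth and scale, and carry no test. By the same measure, over 8136 genes, Bhmt and Cth shared Rbm22 (r = 0.91 and 0.95) and Pnp (r = 0.89 and 0.90) among their 3 closest genes. The closest genes to Ahcy were Serpina1c, Glud1 and Asl (r = 0.93, 0.92 and 0.92), of which Glud1 is glutamate dehydrogenase and Asl a urea cycle enzyme. For the others the closest were Arf5 to Gnmt (r = 0.91), Tra2b to Bhmt2 (r = 0.90), Lgals9 to Cbs (r = 0.91) and Ppfibp2 to Shmt1 (r = 0.92).

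Ratios of enzymes within a library carry no library scale and were compared over time for 8 pairs, by a permutation test with 100000 shuffles of the time labels adjusted over the 8. The ratio of Mat1a to Ahcy, maker of the methyl donor over remover of its product, was 4.48 and 4.53 at CT8, 3.67 and 3.78 at CT4, and between 2.42 and 3.08 in the other 10 libraries. The mice of CT4 and CT8 stood above all others and were close within each time, while those of CT12 differed more, at 3.08 and 2.49. Its fitted peak was at CT6.33 ± 0.552 h (SE), with a peak-to-trough difference of 0.78 ± 0.13 log2 (SE, permutation test, adjusted p = 0.00232). It passed without each of the 14 libraries in turn, with permutation adjusted p of at most 0.0106.

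The ratio of Cbs to Cth, the consecutive steps of cysteine synthesis, was highest at CT8, at 1.37 and 1.29, and lowest at CT24, at 0.942 and 0.535 (permutation test, adjusted p = 0.0348). The ratio of Mat1a to Mat2a, the form of other tissues, averaged 55.9 at CT0 and 31.0 at CT8 (permutation test, adjusted p = 0.0363). That of Shmt1 to its mitochondrial counterpart Shmt2 averaged 0.846 at CT20 and 0.590 at CT12 (permutation test, adjusted p = 0.0363). The ratio of Bhmt to Cbs averaged 1.69 at CT20 and 0.900 at CT8 (permutation test, adjusted p = 0.0496). These 4 ratios were less steady than that of Mat1a to Ahcy. The count of 5 fell to 1 without CT0 replicate 1, CT8 replicate 1 or CT12 replicate 2, to 2 without CT8 replicate 2 or CT20 replicate 2, and to 3 without CT0 replicate 2, CT12 replicate 1, CT16 replicate 2 or CT24 replicate 2. Ratios of Bhmt to Bhmt2, Gnmt to Pemt and Gnmt to Mat1a did not pass (permutation test, adjusted p = 0.0563, 0.244 and 0.134).

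**Figure D3:**
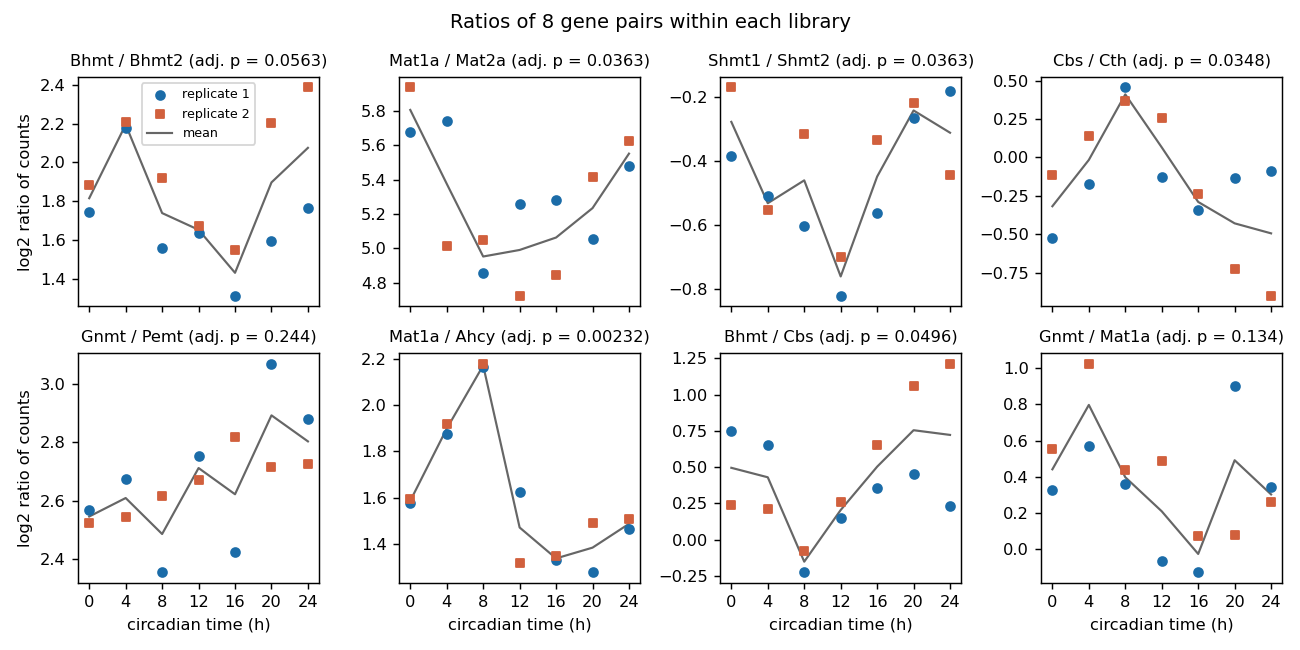
Log2 ratio of whole-transcript counts of 8 pairs of genes against circadian time in h, with circles for replicate 1, squares for replicate 2 and a line through the mean, each panel on its own axis. The ratio of Mat1a to Ahcy peaks at CT8 in both mice.

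Levels of different genes were compared per length, as CPM per kilobase of CDS on the TMM scale (RPKM). Gnmt stood highest, at 782 ± 96.2 RPKM (SD, n = 14), followed by Mat1a at 398 ± 92.3 and Bhmt at 187 ± 58.7. Pemt had 161 ± 23.7, Cth 161 ± 47.4, Ahcy 141 ± 48.8, Cbs 93.8 ± 21.8, Bhmt2 58.2 ± 10.5 and Shmt1 51.4 ± 8.29. Each exceeded at least 93.4% of the 11618 genes ranked. Gnmt was above Mat1a in 14 of 14 libraries (2.00-fold), Mat1a above Bhmt in 14 of 14 (2.17-fold) and Cbs above Bhmt2 in 14 of 14 (1.59-fold). In an exact sign-flip permutation test each of these 3 gave p = 0.000122, the smallest it can give, and 0.000326 after adjustment over the 8 neighbour pairs. Bhmt2 was above Shmt1 in 11 of 14 (exact permutation test, adjusted p = 0.0151), but not when reads were taken per kilobase of whole transcript. Ahcy was above Cbs in 10 of 14 (exact permutation test, adjusted p = 0.0480), a difference that passed when 1 library of CT4 or CT8 was left out and was lost when 1 of the other 10 was (exact permutation test, adjusted p from 0.0195 to 0.0945). The neighbours Bhmt and Pemt, Pemt and Cth, and Cth and Ahcy did not differ beyond their spread (exact permutation test, adjusted p = 0.263, 0.610 and 0.281). If reads of repeated stretches are missing, the levels of Bhmt and Ahcy are too low in every library. Comparisons with either, such as Mat1a above Bhmt and Ahcy above Cbs, are therefore uncertain. How far this set the order was not tested.

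**Figure D4:**
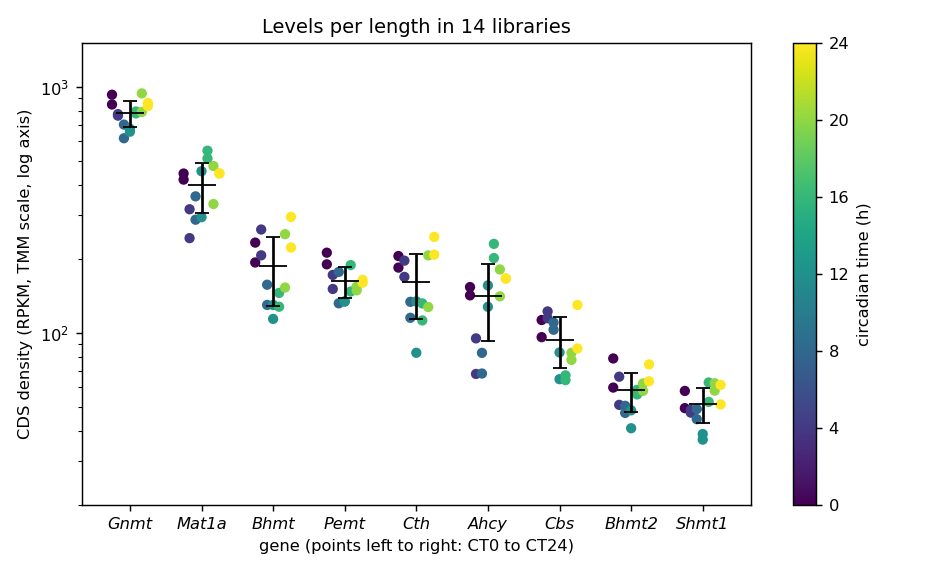
CDS density of the 9 enzymes (RPKM on the TMM scale, log axis), with 1 point per library coloured by circadian time in h and the mean ± SD over 14 libraries in black. The means of Gnmt and Mat1a lie above the rest, the lowest Mat1a libraries lie within the range of Bhmt, and the ranges of Bhmt, Pemt, Cth and Ahcy overlap.

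The share of reads in the 5′UTR differed among the enzymes. In Mat1a, 12.5% of the reads in 5′UTR and CDS fell in the 5′UTR, in Pemt 10.7%, in Shmt1 9.73% and in Cbs 7.30%, beside a median of 3.88% over 16838 transcripts. The share was 1.95% in Bhmt, 0.103% in Cth, 0.0956% in Bhmt2, 0.0163% in Ahcy and 0.00416% in Gnmt. Gnmt had 24 such reads and Ahcy 25 over all 14 libraries, beside 57316 in Mat1a. Ranges over libraries were 8.29% to 16.5% in Mat1a, 6.32% to 13.8% in Pemt, 4.32% to 11.4% in Shmt1 and 4.63% to 10.1% in Cbs, all above the 1.15% to 3.25% of Bhmt.

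The length of the 5′UTR differed too, from 14 nt in Gnmt to 473 nt in Mat1a as the files give it. Per nucleotide, the 5′UTR of Cbs had 0.534 times the read density of its CDS, that of Shmt1 0.409, that of Pemt 0.362 and that of Mat1a 0.362. These 4 were near the middle of all transcripts ranked, above 62.6%, 54.0%, 50.8% and 50.8% of them. That of Ahcy, with 105 nt, had 0.00208 times, which was above only 2.41% of the transcripts ranked. The 5′UTR of Mat1a holds 3 upstream open reading frames (an ATG with an in-frame stop before the CDS) of 66, 30 and 18 nt. Those of 66 and 30 nt are nested, with the same frame and stop. That of the main Pemt transcript holds 1 of 42 nt. Cbs and Shmt1, which had the highest density of the 9 in the 5′UTR relative to the CDS, hold no ATG there. The main Pemt transcript had 9831 reads in its 5′UTR, beside 1779 in that of NM_001290013, which starts further upstream and has the same counts in its CDS. The 5′UTR reads relative to those of the CDS were tested in the 6 enzymes with enough reads, and 0 changed over the day (limma, adjusted p from 0.809 to 0.962, 0 of 6 under 0.05 unadjusted), beside 0% of 7640 transcripts after adjustment and 4.93% before it.

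**Figure D5:**
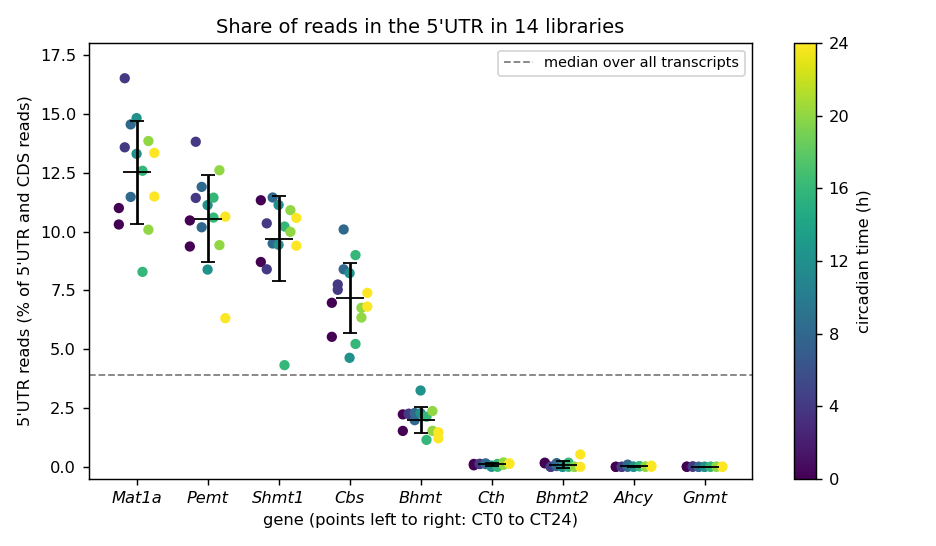
Reads in the 5′UTR as a percentage of 5′UTR and CDS reads for the 9 enzymes, with 1 point per library coloured by circadian time in h, the mean ± SD over 14 libraries in black and the median over all transcripts dashed. Mat1a, Pemt, Shmt1 and Cbs lie above the median and the other 5 enzymes below it.

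The start codons are shown because the 5′UTR reads lie upstream of them, in lower case with the ATG in capitals, read from GRCm38.p6 on the strand of each gene at the positions above. The base 3 before the ATG is A in 6 of the 9 and G in Bhmt2, Shmt1 and Pemt.
Mat1a: ggcacaATGaatg
Gnmt: gtcaggATGgtgg
Pemt: ttcgttATGagct
Ahcy: gccagcATGtctg
Bhmt: ggaaagATGgcac
Bhmt2: ggcgacATGgcac
Cbs: cccagcATGcctt
Cth: cccagcATGcaga
Shmt1: agtgcaATGgcag

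Promoter windows from RefSeq (GRCm38.p6, 250 bases before to 50 after each start) were searched because 7 enzymes peaked in one part of the day. They covered 7 of the 9 genes, without Mat1a and Cth. The motifs, on both strands, were the E-box CACGTG of CLOCK and BMAL1, the D-box TTATGTAA, the REV-ERB and ROR core AGGTCA, the element TGACGTCA bound by CREB, and the glucocorticoid receptor core TGTTCT. Cbs, the enzyme with the latest peak, held an E-box at -229 from the start, as do 7.15% of 32851 promoters. AGGTCA or its reverse TGACCT, found in 16.3% of promoters, stood at -205 in Ahcy, at -181 in Gnmt and at -234, -72 and -47 in Bhmt. The windows with the motif in capitals are all on the minus strand, at chr17:31637421-31637442 for Cbs, chr2:155074689-155074710 for Ahcy, chr17:46729333-46729354 for Gnmt, and chr13:93637979-93638000, chr13:93637817-93637838 and chr13:93637792-93637813 for Bhmt.
Cbs: acgacaaaCACGTGttagacgg
Ahcy: ccttgtttTGACCTctgattca
Gnmt: gtcctatcTGACCTgtcttact
Bhmt at -234: ccagatgtAGGTCAtgcagttt
Bhmt at -72: ccagatcaAGGTCAgaggcctg
Bhmt at -47: ttggacaaAGGTCAgtgtgcag
Neither TTATGTAA nor TGACGTCA stood in any of the 7, and the 5 motifs had no match in Bhmt2 and Shmt1. AGAACA, the reverse of TGTTCT found in 18.97% of promoters, stood only in Pemt, at 31 after the start. A match shows letters, and no binding was measured here.

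The pathway around the 9 enzymes was followed in 69 further genes, of which 67 were tested and 25 passed the rhythm test, or 37.3%, beside 11.3% of all transcripts and 10.6% when each gene is counted by 1 transcript. Of the 25, 16 peaked between CT18 and CT6 and 9 between CT6 and CT18. Over all transcripts called, 46.0% peaked between CT18 and CT6. The median peak-to-trough difference of the list was 0.48 log2, beside 0.44 over all transcripts tested.

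In the folate cycle 5 of 18 tested genes passed, 2 with a peak between CT18 and CT6. Fpgs, which retains folates in the cell as polyglutamates, ranged from 64.5 ± 1.72 CPM at CT0 to 19.1 ± 1.61 at CT12 (SD, n = 2; edgeR, adjusted p = 5.44e-05). Mtrr, which reactivates methionine synthase, peaked at CT16.2 (edgeR, adjusted p = 0.0355). Of 9 genes for the breakdown of glycine, choline and betaine, 2 passed, Gldc and Amt of the glycine cleavage system, with 1.11 log2 from peak to trough each and peaks at CT23.9 and CT2.89 (edgeR, adjusted p = 0.000504 and 0.000212).

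Of 12 genes listed around the making and use of S-adenosylmethionine, relatives of Ahcy included, 5 passed, 3 of them with peaks between CT6 and CT18. Nnmt, which methylates nicotinamide, had 109 ± 9.29 CPM at CT16 and 39.4 ± 0.468 at CT4 (SD, n = 2; edgeR, adjusted p = 0.000254). Mat2a peaked at CT15.0, Ahcyl2, a relative of Ahcy, at CT20.6 and As3mt, which methylates arsenic, at CT17.8 (edgeR, adjusted p = 0.00214, 0.0178 and 0.0412).

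Downstream of Cth, 6 of 10 genes for cysteine, taurine, sulfide and glutathione passed, 5 with peaks between CT18 and CT6. Ethe1, which oxidizes persulfides, had 66.5 ± 12.9 CPM at CT4 and 26.7 ± 6.11 at CT12, and Gclc, the catalytic subunit of the first glutathione step, 104 ± 4.89 at CT4 and 49.5 ± 1.76 at CT16 (SD, n = 2; edgeR, adjusted p = 5.36e-05 for both). The peak of Gclc at CT2.78 lay between those of Cth and Cbs. Mpst peaked at CT21.1 and Gss, glutathione synthetase, at CT10.3 (edgeR, adjusted p = 0.00126 and 0.0243).

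In methionine salvage and polyamine synthesis 3 of 8 passed, with Srm, spermidine synthase, at CT16.8 and Mtap at CT23.5 (edgeR, adjusted p = 0.00197 and 0.0176). Of 4 cobalamin genes only Mmab passed, at CT23.8 (edgeR, adjusted p = 0.00965). In the CDP-choline route, the alternative to Pemt for phosphatidylcholine, 3 of 6 passed, all with peaks between CT18 and CT6. Chka, choline kinase alpha, had 25.0 ± 0.763 CPM at CT0 and 3.09 ± 0.453 at CT12 (SD, n = 2; edgeR, adjusted p = 2.21e-05), a peak-to-trough difference of 2.56 log2 beside the 0.28 of Pemt. Pcyt2 and Chpt1 passed as well (edgeR, adjusted p = 0.0191 and 0.0263).

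Some markers of where in the liver lobule a hepatocyte lies passed the rhythm test, which 11.3% of all transcripts passed. The 7 pericentral markers summed to 2619 to 4961 CPM and 2 of them passed, and the 7 periportal markers summed to 2916 to 4764 CPM with 3 passing. The periportal markers called peaked at different times, Hal at CT2.22, Pck1 at CT11.5 and Sds at CT13.0. Both sums had their lowest mean at CT0. Of the 6 general hepatocyte markers 1 passed, Fgb, a chain of fibrinogen, with its fitted peak at CT5.78, and their sum had its lowest mean at CT4 (34762 CPM) and its highest at CT24 (44971 CPM). The Kupffer, endothelial, stellate and cholangiocyte sums had their lowest mean at CT16 (76.4, 77.7, 102 and 11.2 CPM) and their highest at CT0 (104, 113, 146 and 19.9 CPM). None of these sums was tested. Kupffer cell markers (6, none passing) summed to 62.8 to 116 CPM and stellate cell markers (5, none passing) to 96.9 to 152 CPM. Sinusoidal endothelial markers (5, of which 1 passed) summed to 67.8 to 120.4 CPM, cholangiocyte markers (5, of which 1 passed) to 11.03 to 24.3 CPM and erythroid markers (4 found, none passing) to 38.7 to 77.2 CPM. The part of these markers in the levels of the enzymes was not tested. All 6 acinar markers passed with all libraries and 0 of them without CT20 replicate 2. Ahcy, Bhmt, Cth, Cbs, Gnmt and Bhmt2 passed in both fits, with edgeR adjusted p from 0.000311 to 0.0176 without that library. Shmt1 passed only with it (edgeR, adjusted p = 0.0761 without it).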

How the data were processed

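The authors deposited 1 table per library, with raw counts of reads for every RefSeq transcript, split into CDS and the UTR on either side, and with no normalization. Per the submitters' processing notes, Bowtie2 2.1.0.0 and SAMtools 0.1.19.0 were used with mm10. The study's methods name reads of 26 to 32 nt. They build transcript profiles from reads that align to only 1 place, and do not say whether the deposited counts used the same filter or how reads common to several transcripts were treated. Groups came from the sample titles. For the last pair the title holds both CT00 and, with the replicate number, CT24, and a label field gives CT00. CT24 was used, and a second run of CT16 replicate 2 was not used separately. No label says that the replicate numbers pair mice across times, and their deviations correlated at -0.09 to 0.37 (median 0.03) over 21 pairs of times, so the samples were treated as unpaired.

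The 9 genes, the pathway and marker lists and the tests were chosen with earlier results of these data known. Counts of the 3 regions were added, and transcripts averaging 10 counts or more were fitted with edgeR 4.0.16 (TMM, quasi-likelihood, R 4.3.3). DESeq2 1.42.0 and a JTK_CYCLE written for Python 3.11.15 (numpy 2.4.6, scipy 1.17.1, pandas 2.3.3), with lags every 2 h and equal cosine values kept tied, were alternatives. 5′UTR over CDS counts, on the log2 scale (pseudocount 0.5, at least 10 counts on average in each region), were fitted with limma 3.58.1. The SE of a phase came from a least-squares cosine fit to log2 CPM. The edgeR, limma and JTK_CYCLE steps were tested on simulated data, and the DESeq2 fits were not. Sequences came from GRCm38.p6, and the lengths of all 15 transcripts matched the files within 1 nt per exon. The 9 enzymes are all named. Of each pathway group at most 4 genes are named, those called with the largest peak-to-trough difference and a mean of at least 100 counts (1 gene that met this rule is not reported here), and for each enzyme called up to 3 genes most correlated with it (log2 of CPM + 1). Alternatives were other scalings, a count minimum of 1 or 100, the CDS alone, a single transcript for each gene, other tests, the replicate number as a block, and libraries or times left out. Figures were drawn with matplotlib 3.10.9. Nothing says that libraries were made apart, so p-values measure the spread between these samples.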

Additional observations from a re-analysis of the deposited data

How the results depend on the processing

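Each time rests on 2 mice, and of single times only CT0 and CT24 were compared. Rhythms of Ahcy, Bhmt, Cth and Cbs passed under each of the 31 alternatives run, and fitted peaks of the 9 enzymes moved by at most 3.74 h, the most in Mat1a. The number of enzymes called was 5 to 8 over the alternatives. Without both CT0 libraries it was 5, Gnmt and Shmt1 being lost, and 1396 transcripts were called. Without both CT24 libraries it was 6, with 1755 transcripts called. Leaving out 1 library gave 5 to 7 enzymes, 1499 to 2062 transcripts and 18 to 26 pathway genes. The 1947 transcripts called became 1251 with 1 transcript per gene, where fewer were tested. They became 3049 with JTK_CYCLE on total counts, whose P is not adjusted over transcripts. Enzymes that differed among the 7 times numbered 9 on the scale of total counts (beside 12.7% of transcripts), 8 with DESeq2 (14.2%) and 2 to 4 with 1 library left out. The 5 gene-pair ratios called became 1 to 6 with 1 library left out, and 4 with CDS reads only. Of the 8 neighbouring levels 4 or 5 were told apart with 1 library left out. With the replicate number as a block, 7 enzymes, 1916 transcripts and 24 pathway genes were called, 4 enzymes differed among the 7 times and 0 between CT0 and CT24, and 6 ratios passed, that of Bhmt to Bhmt2 being added (permutation test, adjusted p = 0.0361). With the block As3mt was the 1 pathway gene lost (edgeR adjusted p = 0.0508), no enzyme was lost or gained in the rhythm test, and 94 transcripts were lost and 63 gained. Mat1a passed in 4 of 31 alternatives, and Pemt in 1, JTK_CYCLE on total counts (adjusted P = 0.0201). Counting CT16 replicate 2 as its values divided by 2, or leaving out both CT16 libraries, kept 7 enzymes, the latter chosen after the data were seen. The transcripts called in these 2 settings numbered 1942 and 1481. The causes of these changes were not tested.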
